A study of Rattus norvegicus with 23 samples.

Results

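Serine tRNA reads were examined in small RNA of rat sperm as the 22 rows of the tRNA table whose names begin with tRNA-Ser, out of 273 rows. By anticodon, the triplet that pairs with a codon, 7 rows were Ser-AGA, 2 Ser-CGA, 9 Ser-GCT and 4 Ser-TGA. A row name gives the anticodon, then the isodecoder number, then the gene copy. The low-confidence row tRX-Ser-NNN-2-1 was outside this choice. Sperm came from the cauda epididymis, the storage end of the duct, of male Long-Evans rats. Each library was 1 rat: 7 rats breathed filtered air, 8 breathed 0.4 ppm ozone and 8 breathed 0.8 ppm ozone (chamber means of 0.401 and 0.798 ppm). Every group had 5 exposures of 4 h, with 3 of them in week 1 and 2 in week 2. The labels give neither the rats' age nor a batch, and the design text names 8 rats per group, where 7 air libraries were analysed here. The question, from the series title, was how far repeated ozone, an irritant gas of polluted air, affects noncoding RNA populations in these cells.

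Serine tRNAs read 2 separate families of codons. The AGA, CGA and TGA anticodons read the UCN family, AGA usually after its first base has been changed to inosine, and GCT reads AGC and AGU. Seryl-tRNA synthetase recognises the long variable arm of these tRNAs rather than the anticodon, and it also charges the selenocysteine tRNA. Mature sperm are poor in whole cytoplasmic RNA but rich in tRNA fragments, much of which they gain on the way through the epididymis. The files give 1 value per tRNA gene with no read length or position, so a value here can stand for whole tRNA, for fragments or for both. No tRNA sequence was among the sources used here, and none is printed.

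Serine tRNA was a modest part of the sperm tRNA signal, at 2.99% ± 0.882 of the table (SD, n = 23), and ranked 7th of all isotype entries. It held 3.12% ± 0.686 in the 7 air rats, 2.81% ± 1.21 in the 8 rats at 0.4 ppm and 3.05% ± 0.720 in the 8 at 0.8 ppm. The rats of the groups overlapped, from 2.36% to 4.17% in air, 1.45% to 4.90% at 0.4 ppm and 2.03% to 4.27% at 0.8 ppm. The other tRNAs with a long variable arm were larger. tRNA-Leu held 24.5%, 20.4% and 23.7% in air, 0.4 ppm and 0.8 ppm, and the single selenocysteine row held 3.71%, 4.37% and 4.07%. These shares were not tested.

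The libraries held 164342 to 481504 tRNA reads, of which 3328 to 17328 were serine tRNA reads (median 11699). These reads were taken from the step between deposited values, which was worth 0.460 to 2.42 per read. No pair of the 253 library pairs was identical. Against the miRNA markers of cell types, miR-34 and miR-449 of germ cells held 42.6% ± 5.46 of the miRNA table in air, 35.6% ± 6.50 at 0.4 ppm and 41.7% ± 9.25 at 0.8 ppm, with 5 of 6 listed markers present. Epithelial miR-200 family members (5 of 5) held 0.680% to 3.21% of it, smooth muscle miRNAs (3 of 5) 1.53% to 11.3%, leukocyte miRNAs (5 of 5, with miR-142-3p and miR-223-3p at 0 in some libraries) 0.0253% to 0.122%, and erythroid miRNAs (3 of 4) 0.0107% to 0.205%. The smooth muscle share was nearly all miR-143-3p, at a mean of 16781 over the 23 libraries, against 48.6 for miR-145-5p and 18.8 for miR-1-3p. In bulk sperm RNA, fewer cells of a type and less RNA per cell cannot be told apart.

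All 22 serine rows were above 0 in all 23 libraries, and their mean levels spanned from 3.68 to 3472. These are normalised values not scaled for length. TGA-4-1 stood at 3472 ± 1717 (SD, n = 23) and AGA-1-3 at 3455 ± 1704, the 18th and 19th highest rows of the table. Each held about 32% of the serine signal on average, 32.5% for TGA-4-1 and 32.3% for AGA-1-3. AGA-5-1 followed at 877 ± 426. Together these 3 abundant rows made up 73.0% ± 5.71 of the serine signal.

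The middle of the range was crowded. AGA-1-1, AGA-1-2, AGA-2-1, AGA-3-1, AGA-4-1 and TGA-1-1 had means from 161 to 179. GCT-2-1, GCT-2-2 and the 4 copies of GCT-3 had means from 211 to 252, with GCT-2-1, the highest of its anticodon, at 252 ± 51.3. TGA-2-1 followed at 113 ± 35.6, then GCT-1-1 at 42.4 ± 12.9, CGA-2-1 at 37.7 ± 8.58, TGA-3-1 at 37.2 ± 11.3 and GCT-4-1 at 16.5 ± 6.98. The rarest were CGA-1-1 at 4.65 ± 2.54 and GCT-6-2 at 3.68 ± 1.47, the last of all 273 rows, where a library held only 1 to 17 reads. Within the crowded middle, means of neighbouring rows differed by less than their SD over rats. Differences between rows within each rat are given further below.

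**Figure D1:**
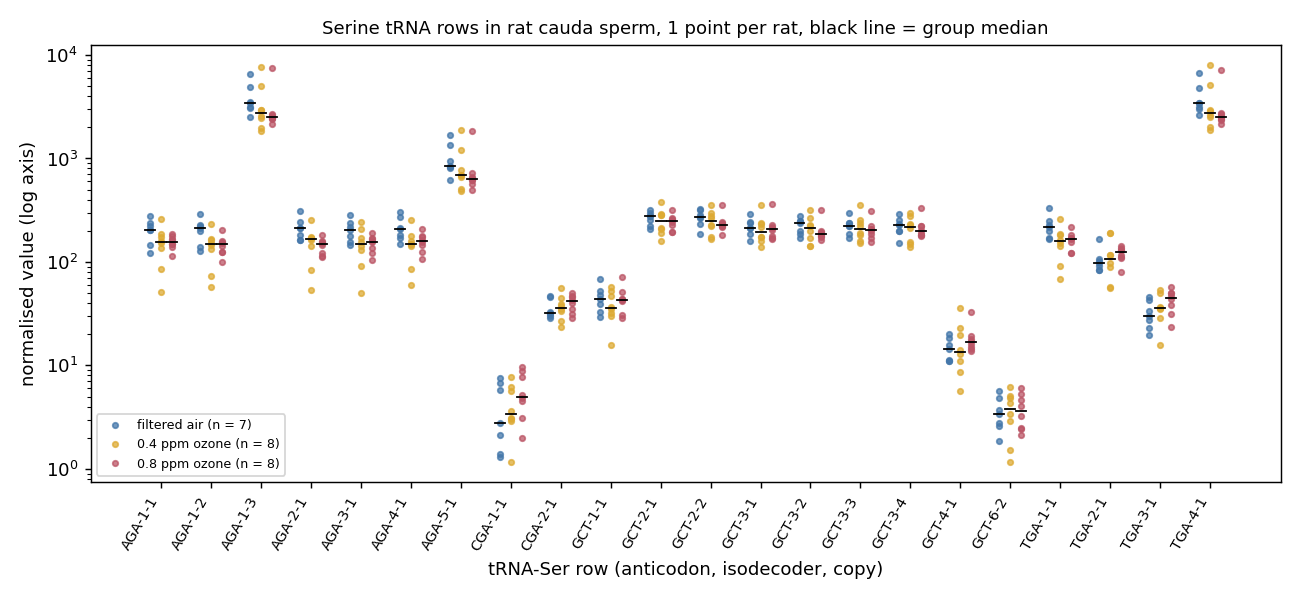
Normalised value (log axis) of each of the 22 serine tRNA rows, with 1 point per rat coloured by group and a black line at each group's median. AGA-1-3, AGA-5-1 and TGA-4-1 stand above the rest, the rows from 161 to 252 crowd the middle, and CGA-1-1 and GCT-6-2 lie near the bottom.

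Rows of 1 anticodon differed widely in level. AGA-1-3 had a mean 20.6-fold that of AGA-1-1, and AGA-1-2 had 0.960-fold, although the 3 copies share an isodecoder number, which marks genes with the same mature sequence. Among the TGA rows, TGA-4-1 was close to AGA-1-3, and TGA-1-1 was close to the low AGA rows. No source used here gives the rule for reads that fit several genes, so the split of reads between near-identical rows is uncertain.

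Several rows were equal within each rat to about the precision of counting. AGA-1-3 and TGA-4-1 differed by a coefficient of variation (SD over mean) with a median of 1.29% over the 23 libraries, where their read numbers alone give 1.66%. Across the 6 rows AGA-1-1, AGA-1-2, AGA-2-1, AGA-3-1, AGA-4-1 and TGA-1-1 it had a median of 7.11%, against 7.79% from counting. The same held for the 4 GCT-3 copies (5.93% against 6.68%) and for both GCT-2 copies (5.06% against 6.33%). Over GCT-2 and GCT-3 together it was 10.2% against 6.56%, which left a difference between the isodecoders. The 3 AGA-1 copies, at 146% against 2.68%, were far from equal. Counting precision covers sampling of reads only, since no molecular identifiers are described.

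Across the 23 rats the rows moved in sets that cut across the anticodons. The sets were read from the correlations themselves and carry no test. The points of each correlation share library, depth and scaling. AGA-1-3, AGA-5-1 and TGA-4-1 were high or low in the same rats, with Pearson r of log2(value + 1) of 0.98 or more and 0.998 for AGA-1-3 with TGA-4-1. The tRX-Ser-NNN-2-1 row, itself at 783 ± 393, correlated with each of them at 0.98 to 0.99. The 6 even rows, 5 AGA and TGA-1-1, correlated with each other at 0.95 to 0.97 over their 15 pairs. Their closest row outside serine was Leu-CAA-1-1, with r from 0.83 to 0.88.

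Between these sets the correlation was weak. An abundant row and an even row had r from 0.02 to 0.23 over 18 pairs, and the 3 AGA-1 copies were divided between them. The GCT-2 and GCT-3 rows correlated with each other at 0.86 to 0.95, with the abundant rows at 0.70 to 0.87 and with the even rows at 0.09 to 0.52. Of the remaining 7 rows, CGA-2-1 correlated with TGA-3-1 at 0.79 and with TGA-2-1 at 0.79. Both CGA rows, the 2 members of 1 anticodon, correlated at 0.04, with CGA-1-1 resting on a median of 3 reads.

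**Figure D2:**
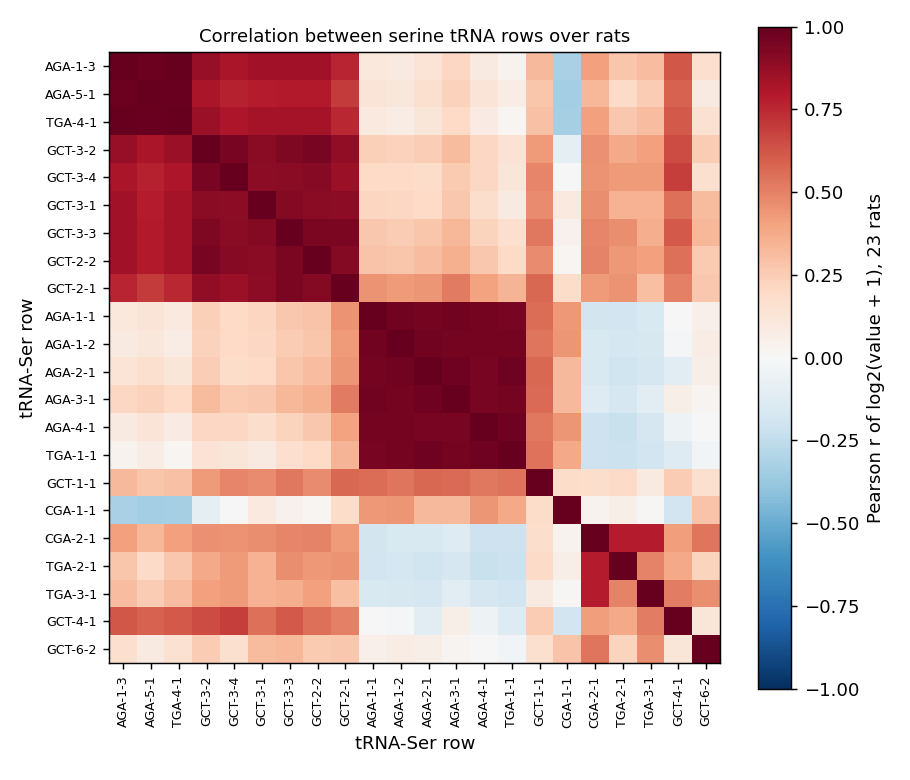
Pearson correlation over 23 rats of log2(value + 1) between the 22 serine tRNA rows, ordered by set, on a scale from -1 to 1. The blocks of high correlation hold AGA-1-3, AGA-5-1 and TGA-4-1 with the GCT-2 and GCT-3 rows, and separately 5 AGA rows with TGA-1-1.

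The abundant rows were very high in a few rats. The sum of AGA-1-3, AGA-5-1 and TGA-4-1 ran from 5771 through a median of 7790 to 14974 in air, from 4220 through 6201 to 17678 at 0.4 ppm and from 4819 through 5719 to 16533 at 0.8 ppm. The highest values belonged to air replicate 6, 0.4 ppm replicate 3 and 0.8 ppm replicate 7. Next came 0.4 ppm replicate 5 at 11407 and air replicate 3 at 11029. In the 3 highest rats the 6 even rows were not high: their sum was 878, 1051 and 746, within the 340 to 1794 of all rats. The mean of the abundant sum without these 3 rats was 7745 ± 1776 in 6 air rats, 6391 ± 2392 in 7 rats at 0.4 ppm and 5588 ± 441 in 7 at 0.8 ppm. The 3 rats were left out for their high values of this same sum, which by itself lowers the means and narrows the SDs. The order of these means was not tested.

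**Figure D3:**
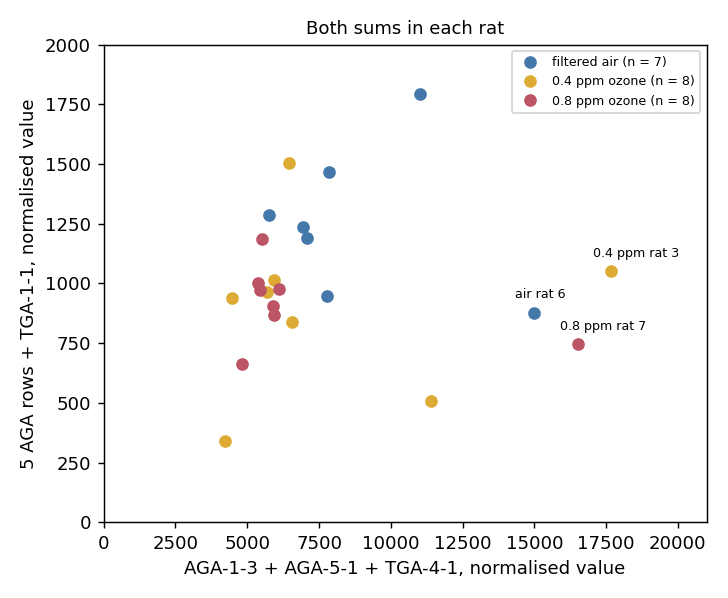
Sum of the 6 even rows against the sum of the 3 abundant rows, both as normalised values, with 1 point per rat coloured by group. Air replicate 6, 0.4 ppm replicate 3 and 0.8 ppm replicate 7 (marked as rats) lie far to the right without standing high on the vertical axis.

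The miRNA makeup of the libraries varied beside both sets. Over the 23 rats, log2 of the even sum correlated with log2 of the germ cell miRNA share at 0.65 and with the smooth muscle share at -0.56. For the abundant sum these were -0.47 and 0.47, and its largest was -0.61 with the leukocyte share. With the epithelial share both were negative, -0.40 for the even and -0.20 for the abundant sum. Without the 3 rats named above, the abundant sum gave -0.14 and -0.01, and the even sum gave 0.70 and -0.74. Germ cell miRNA held 30.8% in air replicate 6, 35.0% in 0.4 ppm replicate 3 and 24.1% in 0.8 ppm replicate 7, which also had the highest smooth muscle share, 11.3%. With the number of tRNA reads, the even sum correlated at 0.43 and the abundant sum at -0.11. The part of cell makeup and depth in the values that follow was not tested.

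At 0.4 ppm against air no serine row passed the limma test after Benjamini-Hochberg adjustment over the 273 rows (0 of 22, percentage called over all rows 0%, smallest adjusted p = 0.627). Before adjustment, 6 of the 22 rows were lower at p under 0.05, against 3.66% of all rows (10 of 273), and no serine row was higher, against 2.2%. These 6 were the even rows, which hold nearly equal values in each rat and so do not count as 6 separate signals. Of the 22 rows, 17 had a negative log2 fold change, with a median of -0.13, beside -0.01 over all rows. By anticodon the median was -0.55 for AGA (7 of 7 negative), -0.10 for GCT (8 of 9), -0.11 for TGA (2 of 4) and 0.09 for CGA (0 of 2).

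AGA-4-1 ran from 151 through a median of 210 to 301 in air and from 59.7 through 149 to 254 at 0.4 ppm. Of the 8 ozone rats 5 lay below the lowest air rat, and the highest lay inside the air range. Its log2 fold change on the log2(value + 1) scale was -0.62 ± 0.23 (SE), with a 95% interval from -1.08 to -0.15 (limma adjusted p = 0.627). TGA-1-1, the TGA row of the even set, ran from 167 through 216 to 334 in air and from 68.2 through 159 to 257 at 0.4 ppm. Again 5 of 8 ozone rats were below all air rats, with a log2 fold change of -0.58 ± 0.22 (limma adjusted p = 0.627).

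The other even rows had like values. AGA-1-2 had a mean of 203 ± 55.5 in air and 140.6 ± 55.5 at 0.4 ppm, a log2 fold change of -0.60 ± 0.23. AGA-2-1 had 213 ± 51.2 and 151 ± 61.3, a log2 fold change of -0.58 ± 0.23. In both, 7 of 8 ozone rats lay below the air median. AGA-3-1 had 203 ± 47.6 and 149 ± 61.9 (-0.55 ± 0.24), with 6 of 8 below the air median. AGA-1-1 had 202 ± 53.1 and 151 ± 64.4 (-0.51 ± 0.24), with 7 of 8 below it. Without 0.4 ppm replicate 6, the rat with the lowest even sum, 2 of the 22 rows were under 0.05 before adjustment in place of 6, and 7 of all 273 rows in place of 16. The log2 fold change was then -0.31 for AGA-1-1, -0.34 for AGA-3-1 and -0.45 for AGA-4-1.

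Taken as 1 sum, the 6 even rows ran from 878 through 1236 to 1794 in air, from 340 through 951 to 1506 at 0.4 ppm and from 661 through 940 to 1186 at 0.8 ppm. All 8 rats at 0.8 ppm and 7 of 8 at 0.4 ppm lay below the air median, and 3 rats of each ozone group lay below the lowest air rat. The means were 1257 ± 311 (SD) in air, 895 ± 355 at 0.4 ppm and 915 ± 162 at 0.8 ppm, so the ozone groups had 0.712 and 0.728 of the air mean. The sum was formed after the values were seen and has no test. The lowest sums were 340 and 507, in 0.4 ppm replicates 6 and 5. Germ cell miRNA held 29.7% and 23.6% of the miRNA table there, the 3rd lowest and the lowest of the 23. In 0.8 ppm replicate 8, the lowest of its group at 661, it held 38.0%, the 9th lowest. The mean germ cell share was 42.6% in air, 35.6% at 0.4 ppm and 41.7% at 0.8 ppm, and its part in the sums was not tested.

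The abundant rows, GCT-2-1 and CGA-2-1 overlapped widely between 0.4 ppm and air. AGA-1-3 ran from 2537 through 3468 to 6617 in air and from 1839 through 2753 to 7693 at 0.4 ppm, a log2 fold change of -0.28 ± 0.28 (limma adjusted p = 0.789). TGA-4-1 ran from 2617 through 3424 to 6658 and from 1895 through 2732 to 8089, a log2 fold change of -0.25 ± 0.28 (limma adjusted p = 0.793). In each, 1 ozone rat lay above all air rats. With single rats left out AGA-1-3 ranged from -0.47 (without 0.4 ppm replicate 3) to -0.14 (without air replicate 6), and it was -0.17 without 0.4 ppm replicate 6. TGA-4-1 ranged from -0.45 to -0.11 without the same rats, and was -0.15 and -0.16 without 0.4 ppm replicates 6 and 2. GCT-2-1, which reads the AGC and AGU codons, had 264 ± 38.4 in air and 251 ± 72.0 at 0.4 ppm, a log2 fold change of -0.11 ± 0.18 (95% interval from -0.48 to 0.26). CGA-2-1 had 35.4 ± 7.65 and 37.2 ± 10.4, a log2 fold change of 0.05 ± 0.21 (95% interval from -0.38 to 0.48).

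**Figure D4:**
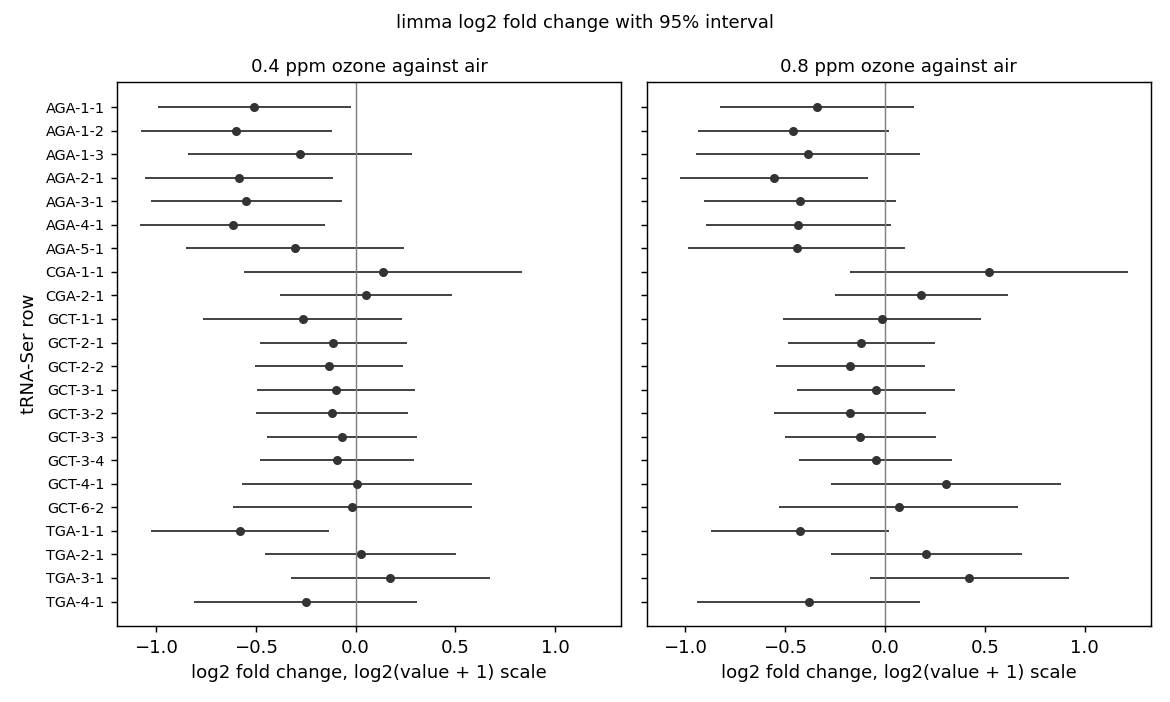
limma log2 fold change with its 95% interval for each of the 22 serine rows at 0.4 ppm and at 0.8 ppm ozone against air, on the log2(value + 1) scale. At 0.4 ppm the intervals of the 6 even rows lie below 0 without adjustment; at 0.8 ppm that holds for AGA-2-1.

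At 0.8 ppm against air again no serine row passed (0 of 22, percentage called over all rows 0%, smallest adjusted p = 0.935). Before adjustment 1 serine row, AGA-2-1, was lower at p under 0.05, and it was the 1 row of all 273 that was lower (0.366%), while 0 serine rows were higher, against 1.47% of all rows. The count of serine rows was 0 without air replicate 3, and 2 to 5 without each of air replicates 1 and 6, 0.4 ppm replicates 5, 6 and 8, and 0.8 ppm replicates 2, 3 and 7. Over all 273 rows either direction gave 5, and 4 to 19 in these fits. AGA-2-1 ran from 164 through 211 to 308 in air and from 113 through 150 to 183 at 0.8 ppm. Of the 8 ozone rats 7 lay below the lowest air rat. The log2 fold change was -0.55 ± 0.23, with a 95% interval from -1.02 to -0.09 (limma adjusted p = 0.935).

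Over all serine rows at 0.8 ppm, 16 of 22 were negative with a median of -0.15, beside -0.02 over all rows. By anticodon the median was -0.43 for AGA (7 of 7 negative), -0.05 for GCT (7 of 9), -0.09 for TGA (2 of 4) and 0.35 for CGA (0 of 2). The CGA rows were CGA-2-1 at 0.18 ± 0.21 and CGA-1-1, with a median of 3 reads, at 0.52 ± 0.34. The even rows other than AGA-2-1 had log2 fold changes from -0.46 to -0.34. AGA-4-1, at 157 ± 32.0, had -0.43 ± 0.23 (limma adjusted p = 0.935), with 8 of 8 rats below the air median. With limma library weights, which give less weight to libraries far from the fit, 3 serine rows passed at 0.8 ppm among 22 of the 273 rows. They were AGA-1-2 (-0.53, limma adjusted p = 0.0394), AGA-2-1 (-0.53, 0.0394) and AGA-4-1 (-0.52, 0.0424). All 3 are even rows with nearly equal values in each rat, so they are not 3 separate signals. With these weights the even rows AGA-1-1, AGA-3-1 and TGA-1-1 did not pass (limma adjusted p = 0.0842, 0.0978 and 0.0811). Nor did the Ser-AGA sum (-0.43, limma adjusted p = 0.118). With every library scaled to the same tRNA total, the median of all rows shifted by 0.30 at 0.8 ppm. The 7 AGA rows were negative there too, with a median of -0.13, but they move in sets and are not 7 separate signals. The median of the 22 rows was 0.15, and relative to all rows it was -0.13, as with the deposited scaling.

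For the abundant rows at 0.8 ppm the size of the fold change depended on single rats, while its direction and the lack of a call did not. AGA-1-3 ran from 2171 through 2491 to 7493, and 5 of 8 rats lay below all air rats while 0.8 ppm replicate 7 lay above them. Its log2 fold change was -0.38 ± 0.28 (limma adjusted p = 0.935), and -0.58 without that rat (limma adjusted p = 0.592). With each rat left out in turn it ranged from -0.58 to -0.25. TGA-4-1 ran from 2151 through 2537 to 7185, a log2 fold change of -0.38 ± 0.28, and -0.57 without that rat (limma adjusted p = 0.604). Without this library, 4 of the 22 serine rows were under 0.05 before adjustment, among 19 of all 273 rows, and 0 passed after it.

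Summed by anticodon, which counts shared reads once where they stay within an anticodon, serine tRNA was again not called (0 of 55 sums over the table, 0%, in all 3 comparisons). Before adjustment 0 of the 4 serine sums were under 0.05, against 3.64% of all sums at 0.4 ppm, 0% at 0.8 ppm and 1.82% between the ozone groups. Ser-AGA ran from 4225 through 5143 to 9027 in air, from 2596 through 4244 to 10486 at 0.4 ppm and from 3208 through 3995 to 9971 at 0.8 ppm. At 0.8 ppm 7 of 8 rats lay below the lowest air rat and the other lay above the highest. The log2 fold changes were -0.32 ± 0.25 (limma adjusted p = 0.648) and -0.40 ± 0.25 (limma adjusted p = 0.895). Without 0.8 ppm replicate 7 the latter was -0.58 (limma adjusted p = 0.244), and with each rat left out in turn it ranged from -0.58 to -0.29.

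Ser-TGA means were 4237 ± 1424 in air, 3816 ± 2127 at 0.4 ppm and 3405 ± 1656 at 0.8 ppm, with log2 fold changes of -0.24 ± 0.26 and -0.35 ± 0.26. Ser-GCT means were 1487 ± 242, 1411 ± 398 and 1388 ± 301, with -0.11 ± 0.18 at both levels. Ser-CGA means were 39.3 ± 8.24, 41.4 ± 10.7 and 46.0 ± 7.89, with 0.06 ± 0.19 and 0.23 ± 0.19. The groups overlapped in each. Under quantile normalization the CGA sum was -0.13 at 0.4 ppm and the GCT sum was 0.0031 at 0.8 ppm. With equal tRNA totals the GCT sum was 0.20 at 0.8 ppm, where all rows shifted by 0.30, and the median GCT row relative to all rows was -0.03 with both scalings.

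**Figure D5:**
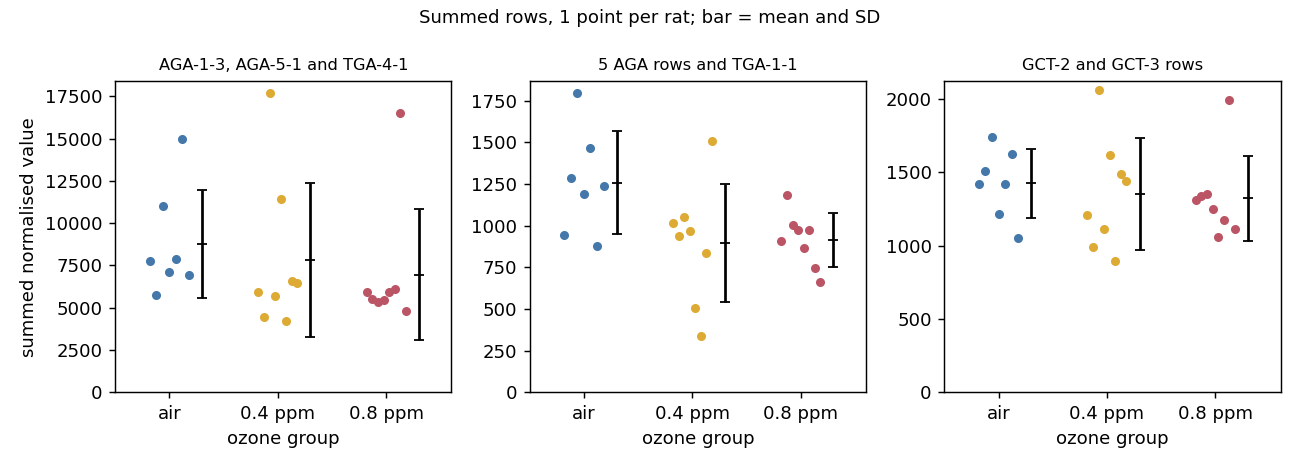
Summed normalised value of the 3 abundant rows, the 6 even rows and the 6 GCT-2 and GCT-3 rows in each rat by group, with the mean and SD beside the points and each vertical axis starting at 0. The even rows sit lower in both ozone groups, at 895 and 915 against 1257 in air, and single rats stand far above the others for the abundant rows.

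Within the serine signal the mean share of AGA was lower in the ozone groups and those of GCT and CGA were higher, all within overlapping ranges. The mean share of TGA differed little between groups. AGA held 50.6% ± 1.35 of it in air, 48.6% ± 1.69 at 0.4 ppm and 48.5% ± 1.27 at 0.8 ppm. TGA held 35.9% ± 1.69, 36.3% ± 2.38 and 35.6% ± 1.44. GCT held 13.2% ± 2.51, 14.6% ± 2.31 and 15.4% ± 2.41, and CGA held 0.344% ± 0.0546, 0.454% ± 0.174 and 0.529% ± 0.154. The shares of the even set varied more between rats, from 3.66% to 15.6%, than those of AGA, from 45.7% to 52.1%. Shares of 1 total depend on each other, and none was tested.

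Between the ozone groups, at 0.8 against 0.4 ppm, no serine row passed the test (0 of 22 passed, 0% of all rows, and 0 of 22 under 0.05 before adjustment, against 2.2% of all rows). The median log2 fold change was 0.10, with 15 of 22 positive, beside -0.01 over all rows, but it was -0.03 without 0.4 ppm replicate 6 and 0.0074 with library weights. For AGA-4-1 the difference was 0.18 ± 0.22, with a 95% interval from -0.26 to 0.63. AGA-1-3 had -0.11 ± 0.27, with an interval from -0.65 to 0.43. Both ozone contrasts against air share the 7 air rats, so their like values are not independent. A list of 25 genes covered tRNA charging, modification, cutting and related steps, among them Sars1 (seryl-tRNA synthetase), Trit1, Nsun2, Dicer1 and Elac2. Of these, 0 were among the 617 rows of the transcript table, which comes from RNA under 200 nt. Their levels were therefore not measured here.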

How the data were processed

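Small RNA under 200 nt was isolated with mirVana, made into CleanTag libraries and sequenced for 75 cycles on a NextSeq 500, per the labels' protocols, which give RNA integrity numbers of 2 to 4. Partek, Bowtie 1.0.0 and rn6 come from the submitters' processing notes. The authors deposited a scaled read signal for each tRNA row. Median-ratio factors were found within each table, so levels were compared within a table. At least 99.63% of the values in a library were whole multiples of 1 step (within 0.1 read).

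limma 3.58.1 (R 4.3.3, trend and robust) was fitted to log2(value + 1) of rows above 0 in 8 libraries, all 3 groups in 1 model, with two-sided Benjamini-Hochberg adjusted p at 0.05 over 273 rows or 55 anticodon sums. The fit was tested on simulated data. Named rows were the highest of each anticodon and the 6 with the smallest unadjusted p. Others were named after their values were seen. Members and lists were chosen with earlier results of these data known. Alternatives were another pseudocount, filters, scalings, weights, 2-group fits, an exact Wilcoxon test, isodecoder sums and leaving out rats.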

Additional observations from a re-analysis of the deposited data

Results flagged for a closer look

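The 5 results here share 1 rat, 0.8 ppm replicate 7, whose value was set apart from the other 7 rats of its group by a gap that took more of the group's range than Dixon's 95% critical value of 0.526. Chance flags about 1 in 20 groups, and 45 groups were examined. AGA-1-3 was 7493 in that rat, with the next rat at 2704. TGA-4-1 was 7185, next 2754. The Ser-AGA sum was 9971, next 4169, and the Ser-TGA sum was 7475, next 3084. The Ser-GCT sum was 2076, next 1436. These sums and rows hold overlapping signal, so the flags are not separate. Smooth muscle miRNA, nearly all of it miR-143-3p, held 11.3% of the miRNA table in that rat, the highest of the 23. The part of this share in these values was not tested.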

How the results depend on the processing

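Of 311 values recomputed under other settings, 301 were classed as unchanged. For fold changes of rows and sums this meant the same direction and side of the threshold, which was not called in every main fit. The size of a fold change was not part of this rule. For counts, all 0 in the main fit, it meant 0 again, and for medians and shares a shift smaller than an SD over rats. Scaling to equal tRNA totals moved the serine median at 0.8 ppm to 0.15, GCT-2-1 to 0.18 and the GCT sum to 0.20, where all rows shifted by 0.30 and the serine median relative to all rows was still -0.13. Quantile normalization gave GCT-2-1 0.0585 and the CGA sum -0.13 at 0.4 ppm, and the GCT sum 0.0031 at 0.8 ppm. Library weights gave 3 serine calls at 0.8 ppm, all of them even rows, among 22 calls over all 273 rows, and no serine sum was called. The cause was not tested for the last 2 settings. With each rat left out, no row was called. Single-rat ranges at 0.4 ppm were -0.0393 to 0.14 for CGA-2-1 and -0.0294 to 0.13 for the CGA sum, both negative without 0.4 ppm replicate 7. The serine median ranged from -0.21 to -0.07 at 0.4 ppm from -0.23 to -0.10 at 0.8 ppm and from -0.03 (without 0.4 ppm replicate 6) to 0.17 between the ozone groups. Serine rows under 0.05 before adjustment at 0.4 ppm ranged from 2 (without 0.4 ppm replicate 6) to 6. Of all 273 rows, 7 were under 0.05 in the fit with 2, and 16 to 27 in the fits with 6. At 0.8 ppm serine rows ranged from 0 (without air replicate 3) to 5 (without 0.4 ppm replicate 6), beside 4 and 11 of all rows. Leaving out the 3 rats with the highest AGA-1-3 together, an alternative chosen after seeing the data, gave 6 and 5 of 22 before adjustment (10.6% and 5.86% of all rows) and 0 calls. A filter at a mean of 10 removed CGA-1-1 and GCT-6-2. An edgeR fit planned on recovered reads was not run, because the low values were too few to check that step. No paired analysis was possible because the rat numbers in the labels are not shared between groups. With 3 reads at the median, CGA-1-1 is limited by depth.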
